A study of Mus musculus with 2 samples.

Results

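Mesothelial identity genes and simple keratins were examined in cultured cells of gonadal fat from mice with and without pelvic irradiation. The list named 10 genes, namely Msln, Upk3b, Upk1b, Lrrn4, Muc16, Krt7, Krt8, Krt18, Krt19, and Wt1, of the 24091 genes in the deposited table. They were taken by gene symbol, and the list was chosen by its deposited values in both libraries, so the differences below describe the genes and do not test them. A row was found for 9 of them. Muc16, which codes for the mucin that binds mesothelin, had no row, so its expression was not examined here.

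The series holds 2 RNA sequencing libraries of cultured cells from C57BL/6 mice, 1 from sham-irradiated animals, called the sham culture here, and 1 from animals whose pelvis was irradiated, called the irradiated culture. The labels give 7.5 Gy and 5 days and do not say whether the dose was daily or in total. Fat was taken 2 months after radiation, the floating cells of a collagenase digest were cultured for 3 days, and polyadenylated RNA was sequenced. Both titles also name PBS without saying what received it. The sources used here do not give sex, age, or the number of mice per library. There was 1 library per condition, so no difference below was tested and any effect of radiation cannot be told apart from other differences between the 2 cultures.

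Mesothelium is the single layer of flat, mesoderm-derived cells that lines the peritoneal cavity and covers the visceral fat pads. Its cells carry surface proteins such as mesothelin, and, unlike most cells of mesodermal origin, they build part of their intermediate filaments from the keratins of simple epithelium. The zinc finger transcription factor WT1 is also found in mesothelial cells, but it is not restricted to them, since progenitors of visceral fat express it as well. In RNA from a mixed culture, more cells of a type and more RNA per cell cannot be told apart.

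The table gave log2(FPKM + 0.1), where FPKM counts the fragments on a gene per kilobase and per 1000000 sequenced. FPKM divides by length, so levels can be compared between genes. From the steps of the lowest values, the sham culture held 30600000 fragments and the irradiated culture 35000000, and these totals gave back the number of fragments on each gene. A count of 0 allows up to 3 fragments, which on a gene of 1 kb equal an FPKM of 0.0981 and 0.0858. The labels call the material primary adipocytes. Adipoq, which codes for the adipocyte hormone adiponectin, had an FPKM of 0.133 in the sham culture and 0.232 in the irradiated culture. Of 12 adipocyte genes, 7 stayed below an FPKM of 1 in both libraries, beside 12838 of all 24091 genes. The other 5 were Cd36, at 118 and 161, Fabp4, at 96.9 in both, Lpl, at 68.0 and 66.6, Pnpla2, at 5.11 and 5.76, and Pparg, at 4.59 and 4.69, and of these Cd36, Fabp4, and Lpl are also known from macrophages or endothelium. All 12 fibroblast and progenitor genes were above an FPKM of 1 in both, and 10907 of all 24091 genes had an FPKM of at least 1 in both.

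The surface and keratin members were higher in the irradiated culture, whereas Wt1 was slightly lower. All 4 measured surface genes and all 4 keratins had a higher FPKM in the irradiated culture, with fold differences from 1.76 for Lrrn4 to 5.21 for Msln. Of all 11253 genes with an FPKM of 1 or more in either library, 53.5% were also higher there. Wt1 had the highest level of the 9 genes in both libraries, and its FPKM in the irradiated culture was 0.913 times that in the sham culture. The levels of the surface and keratin genes were low, and only Upk1b, Lrrn4, Krt8, and Wt1 reached an FPKM of 1 in both libraries.

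**Figure D1:**
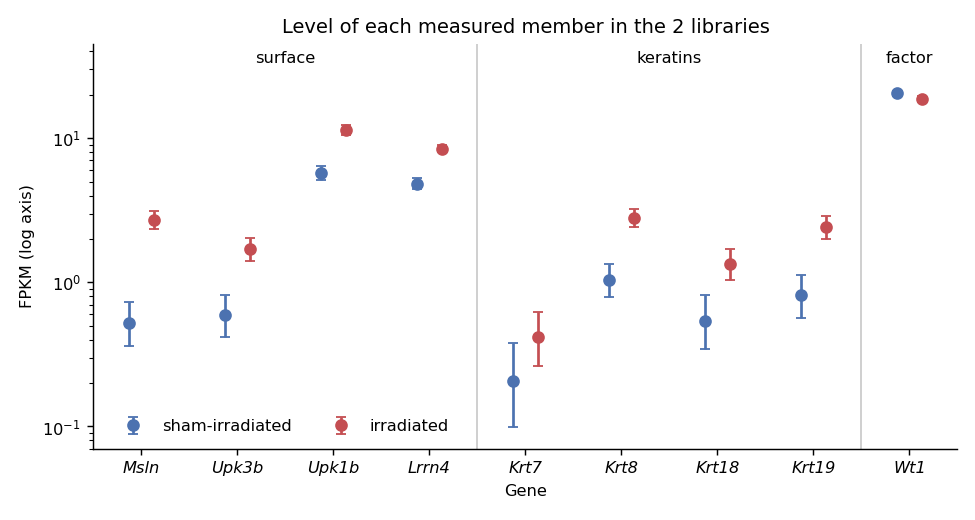
FPKM (log axis) of the 9 measured genes in the sham and the irradiated culture, with exact 95% Poisson intervals that cover counting error only. All 4 surface genes and all 4 keratins lie higher in the irradiated culture, and Wt1, the highest of the 9, is at 20.4 and 18.7.

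Msln codes for mesothelin, a surface protein held in the membrane by a lipid anchor and one of the best known markers of mesothelium. The gene lies on mouse chromosome 17 from 25748613 to 25754378 (mm10, as are the other gene positions). Its FPKM was 0.520 in the sham culture, on 34 fragments, and 2.71 in the irradiated culture, on 202 fragments. This was the largest difference of the 9 genes, 2.18 on the deposited log2 scale, with a 95% counting interval of the fragment ratio from 1.85 to 2.95 (log2). Of the 11253 genes with an FPKM of 1 or more in either library, 7 had a larger positive difference. Msln passed this minimum only through the irradiated culture and was chosen with its difference known, so this rank is not a test. Mslnl, the neighbouring mesothelin-like gene, had 0 and 2 fragments.

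Upk3b and Upk1b code for uroplakins, membrane proteins first known from the plaques of the bladder lining. Upk3b lies on chromosome 5 from 136038496 to 136044993, and its FPKM was 0.597 in the sham culture and 1.70 in the irradiated culture, on 37 and 121 fragments. Upk1b, which codes for a tetraspanin, lies on chromosome 16 from 38773184 to 38800203, and its FPKM was 5.76 and 11.4, on 310 and 701 fragments. Their differences were 1.37 and 0.97 on the deposited scale. Their log2 fragment ratios were 1.52 and 0.98, and neither counting interval, from 0.97 to 2.09 and from 0.79 to 1.18, included 0. The other uroplakins were near or at the floor in both libraries. Upk2, Upk3a, and Upk3bl had 0 fragments in each, and Upk1a had 5 in each. The signal thus lay in Upk1b and Upk3b and not in the uroplakins that the bladder lining makes beside them.

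Lrrn4 codes for a transmembrane protein with leucine-rich repeats and lies on chromosome 2 from 132868516 to 132880862. Its FPKM was 4.82 in the sham culture and 8.47 in the irradiated culture, on 512 and 1029 fragments. The difference of 0.80 was the smallest of the surface genes, and with the most fragments among them it also had the narrowest counting interval, from 0.66 to 0.97. Among its relatives, Lrrn2 had an FPKM of 1.54 and 1.94, and Lrrn1 and Lrrn3 were under 1 in both libraries. The counting intervals of Lrrn2 and Lrrn3 lay above 0. Lrrn4cl, a gene named for its similarity to Lrrn4, had 6.86 and 7.31, a difference of 0.09 with a counting interval that included 0.

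The promoters of Lrrn4 and Upk3b are shown because, of the 6 member promoters searched, only these 2 hold the same short motif. They cover the 250 bases before the start site in RefSeq (GRCm38.p6), chr2:132880863-132881112 on the minus strand for Lrrn4 and chr5:136038246-136038495 on the plus strand for Upk3b. The capitals mark GGAATG, the core of the TEAD site, or its reverse complement CATTCC. The match ends 191 bases before the start site of Lrrn4 and 236 bases before that of Upk3b.
Lrrn4: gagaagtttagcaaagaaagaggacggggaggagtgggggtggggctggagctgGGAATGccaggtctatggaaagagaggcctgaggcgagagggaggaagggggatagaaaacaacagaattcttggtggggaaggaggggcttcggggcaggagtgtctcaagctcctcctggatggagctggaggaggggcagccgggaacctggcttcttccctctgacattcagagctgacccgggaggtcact
Upk3b: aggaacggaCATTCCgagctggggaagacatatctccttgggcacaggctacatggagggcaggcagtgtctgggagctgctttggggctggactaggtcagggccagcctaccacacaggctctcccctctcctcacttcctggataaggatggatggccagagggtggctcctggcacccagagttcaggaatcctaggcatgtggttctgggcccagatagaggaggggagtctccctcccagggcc
Of the 32851 promoters of this length in the same RefSeq set, 12.6% hold the TEAD motif on either strand. The promoters of Muc16, Krt7, Krt8, and Krt18 do not hold it, and whether the motif bears on any difference was not tested. The WT1/EGR site, GCGGGGGCG, was found in 2.6% of all promoters and in none of the 6 member promoters searched, those of Lrrn4, Upk3b, Muc16, Krt7, Krt8, and Krt18. The AP-1 site, TGANTCA, and the CCAAT box, CCAAT, were found in 6.7% and 33.8% of all promoters and in none of the 6. Both strands were searched, no matches overlapped, and a match or its lack describes these letters only.

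Krt8, Krt18, Krt19, and Krt7 code for keratins of simple, single-layered epithelium. Keratin filaments form from pairs of a type II and a type I protein, and Krt8 and Krt7 are type II whereas Krt18 and Krt19 are type I. Krt8 and Krt18 are the pair that simple epithelia commonly express. Their genes lie side by side on chromosome 15, Krt8 from 101996711 to 102004342 on the minus strand and Krt18 from 102028216 to 102032026 on the plus strand, with 23874 bases between their start sites. Krt7 lies in the same cluster, from 101412403 to 101427806, and Krt19 on chromosome 11 from 100140811 to 100145926.

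The promoters of these 3 genes on chromosome 15 are shown as the keratin counterpart, each with the 250 bases before its RefSeq start site in GRCm38.p6. They are chr15:102004343-102004592 on the minus strand for Krt8, chr15:102027966-102028215 on the plus strand for Krt18, and chr15:101412153-101412402 on the plus strand for Krt7. The capitals mark the GC box of Sp1, GGGCGG or its reverse complement CCGCCC, which Krt7 holds 4 times and which 32.7% of all promoters hold. Krt8 and Krt18 held none of the 5 motifs searched.
Krt8: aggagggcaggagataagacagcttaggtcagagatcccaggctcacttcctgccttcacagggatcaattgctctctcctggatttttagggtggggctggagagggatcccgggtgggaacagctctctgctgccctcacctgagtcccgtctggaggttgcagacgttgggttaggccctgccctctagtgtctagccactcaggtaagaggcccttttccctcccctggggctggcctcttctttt
Krt18: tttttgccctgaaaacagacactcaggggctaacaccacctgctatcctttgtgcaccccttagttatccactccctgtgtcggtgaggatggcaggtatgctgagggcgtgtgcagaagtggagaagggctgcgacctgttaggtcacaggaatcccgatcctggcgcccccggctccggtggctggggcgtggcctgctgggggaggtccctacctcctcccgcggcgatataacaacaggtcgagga
Krt7: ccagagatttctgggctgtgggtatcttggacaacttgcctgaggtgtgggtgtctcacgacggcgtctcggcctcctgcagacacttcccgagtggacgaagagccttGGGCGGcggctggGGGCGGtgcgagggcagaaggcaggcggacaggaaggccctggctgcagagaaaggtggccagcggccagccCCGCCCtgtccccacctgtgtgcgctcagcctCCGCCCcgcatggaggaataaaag
The promoters of Msln, Upk1b, Krt19, and Wt1 are not shown.

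Krt8 was the most abundant of the 4 keratins, with an FPKM of 1.04 in the sham culture and 2.81 in the irradiated culture, on 57 and 176 fragments. Krt18 had an FPKM of 0.542 and 1.33, on 23 and 65 fragments. Krt19 had 0.814 and 2.41, on 35 and 119 fragments. The differences of these 3 genes were 1.35, 1.16, and 1.46 on the deposited scale. Their log2 fragment ratios were 1.43, 1.30, and 1.57, and all 3 counting intervals of these ratios lay above 0. The lowest of them was that of Krt18, from 0.60 to 2.06. Krt7, with 10 and 23 fragments, had an FPKM of 0.208 and 0.418, and its interval, from -0.12 to 2.24, included 0, so no difference was detectable for Krt7 at this depth. In the GENCODE M21 transcripts, 26.9% of the 50-base stretches of Krt8 also occur in the pseudogene Krt8-ps, so part of the Krt8 fragments could have been placed on either. For Krt18 this share was 0.72%, and for the other 7 measured genes it was 0. In the same annotation, Gm671 overlaps Krt7 by 1269 bases and Gm36026 overlaps Krt8 by 271 bases, both on the opposite strand, with the strand setting of the counting not given in the sources used here.

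The 4 keratins kept nearly the same proportions at their higher level. Krt8 made up 40.0% of their summed FPKM in the sham culture and 40.3% in the irradiated culture, Krt19 31.2% and 34.6%, Krt18 20.8% and 19.1%, and Krt7 7.98% and 5.99%. The type I keratins summed to an FPKM of 1.36 and 3.75 and the type II keratins to 1.25 and 3.23, a ratio of type I to type II of 1.09 and 1.16. In none of the 6 pairs of keratins did the ratio of the 2 genes differ between the libraries beyond its counting interval, although these intervals were wide. For Krt8 with Krt18, the interval of the log2 change of their ratio ran from -0.76 to 0.98.

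Across the keratin family, the table held 55 genes, of which 33 had no fragments in either library. The 4 members carried 61.3% of the summed keratin FPKM in the sham culture and 73.7% in the irradiated culture. The keratins with an FPKM of at least 1 in either library were Krt8, Krt18, and Krt19. The 9 keratins listed for stratified epithelium all stayed below an FPKM of 1, and Krt1, Krt5, Krt6a, Krt6b, and Krt16 had no fragments. Krt10, the stratified keratin with the most fragments, had 45 and 61, with a counting interval that included 0.

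Wt1 behaved unlike the other 8 genes. It lies on chromosome 2 from 105126529 to 105173614, and its FPKM was 20.4 in the sham culture and 18.7 in the irradiated culture, on 2083 and 2176 fragments. The difference was -0.13 on the deposited scale, with a counting interval from -0.22 to -0.04. Among the 11253 genes kept, 83.4% had a higher value of the difference than Wt1. The antisense gene Wt1os starts 19 bases from the start site of Wt1 on the other strand without overlapping it, and it had an FPKM of 0.230 and 0.210.

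Set against Wt1 within each library, which cancels library size, the surface and keratin genes made up a larger part in the irradiated culture. The 4 surface genes together had 893 fragments in the sham culture and 2053 in the irradiated culture, which is 42.9 and 94.3 per 100 fragments of Wt1. The log2 change of this ratio was 1.14, with an exact counting interval from 0.99 to 1.28. The 4 keratins had 125 and 383 fragments, which is 6.00 and 17.6 per 100 fragments of Wt1, and the log2 change was 1.55, with an interval from 1.24 to 1.87. Per FPKM the surface genes summed to 0.572 of Wt1 in the sham culture and 1.30 in the irradiated culture, and the keratins to 0.127 and 0.374. All 8 genes, taken singly, differed from Wt1 beyond the counting interval, and Krt7 did so narrowly, with an interval from 0.01 to 2.38. The genes were chosen with this contrast in view.

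Summed by class, the surface genes were at an FPKM of 11.7 and 24.3, a fold difference of 2.07, and the keratins at 2.60 and 6.97, a fold difference of 2.68. The median difference was 1.17 for the surface genes, with a range from 0.80 to 2.18, and 1.26 for the keratins, from 0.75 to 1.46, beside a median of 0.02 for all 11253 genes kept. Of the 9 genes, 5 were higher by at least 1 on the deposited scale, namely Msln, Upk3b, Krt8, Krt18, and Krt19. Upk1b, at 0.97, lay just below this threshold. Among all genes kept, 0.791% lay this far above 0 and 0.373% as far below, and among the 7375 kept genes whose higher FPKM was between 1 and 15, a range set after seeing the data, the shares were 1.13% and 0.515%. Msln, Upk3b, Krt18, and Krt19 passed the minimum FPKM of 1 only through the irradiated culture, and Krt7 did not pass it, so these shares are background and not a test of the list. The counting interval lay above 0 for 7 of the 9 genes and below 0 for Wt1. Over all 24091 genes these counts were 3100 and 2109, and among the genes kept the shares were 23.8% and 17.4%.

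**Figure D2:**
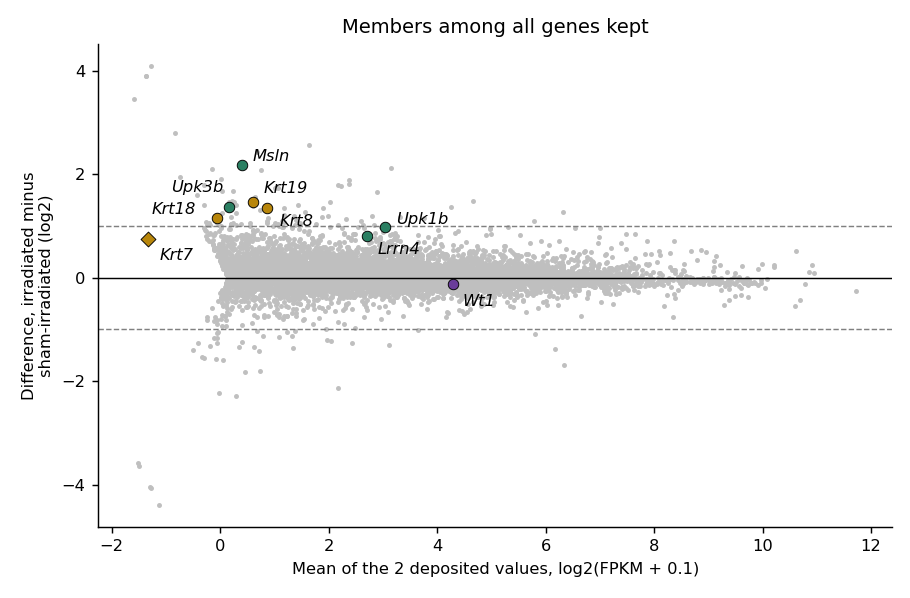
Difference between the libraries (irradiated minus sham-irradiated, log2) against the mean of the 2 deposited log2(FPKM + 0.1) values, with the 11253 genes kept in grey, surface genes in green, keratins in yellow, and Wt1 in purple. Dashed lines mark differences of 1 and -1, and the diamond is Krt7, which stayed below an FPKM of 1. Msln, at 2.18, lies highest of the 9 genes and Wt1, at -0.13, lies below 83.4% of the genes kept.

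The surface genes did not share a single ratio. Msln had a larger difference than Lrrn4, with a log2 change of their ratio of 1.56 and a counting interval from 1.01 to 2.15, and than Upk1b, with 1.39 and an interval from 0.82 to 2.00. Upk3b also exceeded Lrrn4, by 0.70 (interval 0.14 to 1.30), whereas Upk1b and Lrrn4 differed by 0.17 (interval -0.08 to 0.42). Msln made up 4.44% of the summed FPKM of the 4 surface genes in the sham culture and 11.2% in the irradiated culture, and Lrrn4 41.2% and 34.9%. Upk1b and Lrrn4 had the higher levels and the smaller differences. Without Wt1 and Msln, 3 of the 21 remaining pairs had an interval that excluded 0, and all 3 involved Lrrn4, which differed from Upk3b, Krt8, and Krt19.

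Of 16 other genes known from mesothelium, 13 reached an FPKM of 1 or more in either library, and 3 of these did so only through the irradiated culture. Their median difference was 0.62, with 11 of the 13 higher and 2 lower, beside 53.5% of all genes kept that were higher. The median was 0.50 over all 16 genes and 0.26 over those with an FPKM of 5 or more in either library. Bnc1, which codes for the zinc finger protein basonuclin 1, had an FPKM of 2.69 and 4.53, a difference of 0.73. Nkain4, which codes for a protein that interacts with the sodium pump, had 0.495 and 1.11, a difference of 1.02 on 16 and 41 fragments, the largest among those kept. Pkhd1l1, a gene for a large membrane protein, stayed below an FPKM of 1 with 101 and 310 fragments, a difference of 1.15. Slpi, a secreted protease inhibitor, had 66.6 and 129, a difference of 0.95. Ezr, which codes for the membrane and actin linker ezrin found in microvilli, had 15.7 and 24.3, a difference of 0.63.

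The remaining mesothelial genes did not all follow. Aldh1a2, which codes for an enzyme of retinoic acid synthesis, had an FPKM of 60.9 in the sham culture and 48.1 in the irradiated culture, a difference of -0.34 with a counting interval from -0.40 to -0.28. Pdpn and C3, the list genes with the most fragments, which code for podoplanin and complement component 3, had differences of 0.26 and 0.19, and fibroblasts and immune cells can express them too. Calb2, which codes for the mesothelial marker calretinin, had no fragments in either library, which allows an FPKM of up to 0.0569 and 0.0497. Of the 16 genes, 11 had a counting interval above 0 and 1 below 0. Over all 24091 genes these counts were 3100 and 2109, and among the genes kept the shares were 23.8% and 17.4%.

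**Figure D3:**
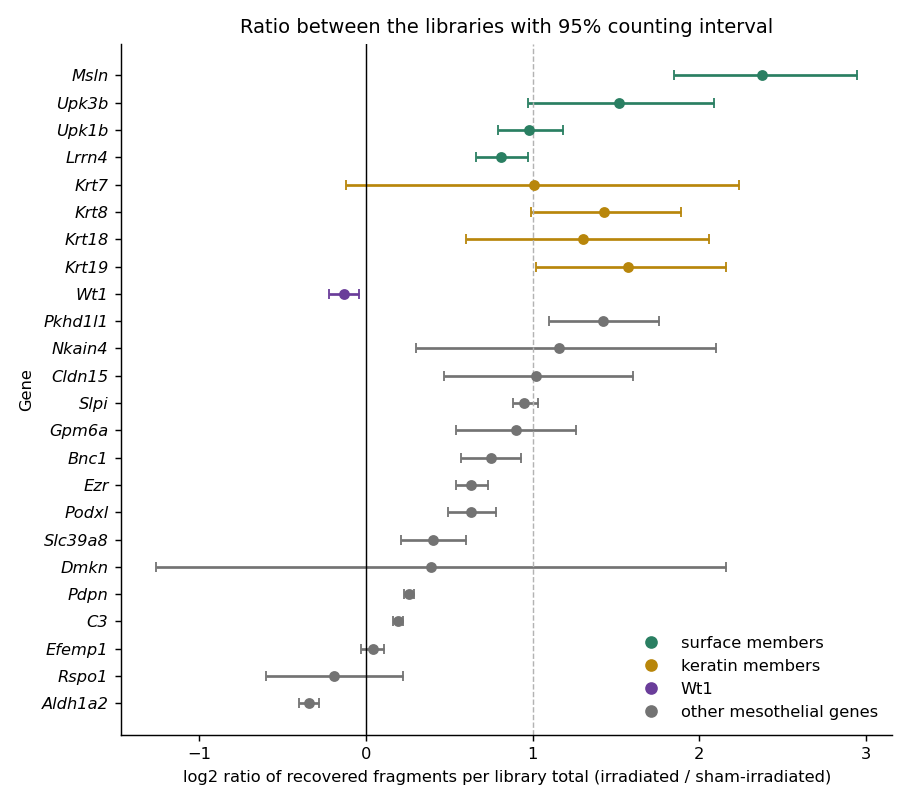
The log2 ratio of recovered fragments per library total, irradiated to sham-irradiated, with exact 95% (Clopper-Pearson) counting intervals, for the 9 measured genes and for 15 other mesothelial genes with 3 or more fragments in either library. The solid line marks no difference and the dashed line a ratio of 1 on the log2 scale. Among the members, the interval of Krt7 spans 0 and that of Wt1, from -0.22 to -0.04, lies below 0, and Aldh1a2 is the lowest of all.

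Across the members and the other mesothelial genes, the more abundant genes tended to differ less. The members were chosen with these differences in view and with Wt1 as the contrast, so this trend is a description and not a test. Spearman's rho between the mean log2 level and the difference was -0.49 over 24 genes, which share both libraries and are not independent, and -0.14 over all 11253 genes kept. Of the 7 genes with a mean FPKM of at least 15, 5 were higher in the irradiated culture, with a median difference of 0.19 and a range from -0.34 to 0.95. Of the 17 genes below that level, 16 were higher, with a median of 0.93 and a range from -0.18 to 2.18. Wt1 and Aldh1a2 were the 2 abundant genes that were lower, and Rspo1, a secreted amplifier of Wnt signalling, was the low gene, at an FPKM of 1.82 and 1.59 with an interval that included 0.

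Transcription factors of visceral mesoderm and its mesothelium had smaller differences than the surface genes. Of 7 such factors, 5 reached an FPKM of at least 1, and their median difference was -0.08. The median over all 7 was 0.03, since Gata4 and Gata5, both below an FPKM of 1, were at 0.06 and 0.48, and the counting interval of Gata5, from 0.06 to 1.06, lay above 0. Tcf21 had an FPKM of 10.3 and 8.53, a difference of -0.27, and Tbx18 had 9.75 and 8.18, a difference of -0.25, both with a counting interval below 0. Gata6 had 8.24 and 8.84, and Nr2f2, with the most fragments of these, was at 16.5 and 15.6. The 6 transcription factors of epithelial to mesenchymal transition all passed the filter, with differences from -0.12 for Snai2 to 0.14 for Zeb1 and a median of -0.035.

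Of 14 genes known as targets of WT1 in other cells, 9 reached an FPKM of 1, with a median difference of 0.15. Of these 9, 7 were higher, beside 53.5% of all genes kept. Of the 14, 5 had a counting interval above 0 and 1 below 0. Over all 24091 genes these counts were 3100 and 2109, and among the genes kept the shares were 23.8% and 17.4%. The 1 target with an interval below 0 was Vdr, which codes for the vitamin D receptor. Its difference was -0.14, with an interval from -0.26 to -0.03. Podxl, which codes for the surface sialomucin podocalyxin and is also a gene of mesothelium, had the largest difference, with an FPKM of 3.61 and 5.60 and a difference of 0.62. Nphs1, which codes for nephrin of the kidney podocyte, had 0 and 1 fragments. The list was drawn from other tissues, and no count of it says whether WT1 acted on these genes here.

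Of 11 genes for proteins that keratin filaments attach to and for other intermediate filaments, 5 reached an FPKM of 1, with differences from 0.15 for Pkp2 to 0.29 for Jup. Of all 11, 6 had a counting interval above 0, beside 3100 of all 24091 genes and 23.8% of the genes kept. Among the 6 genes below an FPKM of 1, 3 had such an interval. These were Ppl, which codes for periplakin, on 21 and 51 fragments with an interval from 0.33 to 1.89, Pkp3, which codes for the desmosomal protein plakophilin 3, on 6 and 20 with an interval from 0.17 to 3.15, and Evpl, which codes for envoplakin, on 4 and 15 with an interval from 0.06 to 3.76. Their log2 fragment ratios were 1.09, 1.54, and 1.71, beside 1.01 to 1.57 for the 4 keratins, but these 3 genes were picked by their intervals. The intervals of Dsp, Dsg2, and Dsc2 included 0, and Dsc2 was lower in the irradiated culture, on 11 and 7 fragments with a ratio of -0.85. Vim, which codes for the mesenchymal filament vimentin, was at an FPKM of 929 and 1120, far above the summed FPKM of the 4 keratins, 2.60 and 6.97. Plec, which codes for the linker plectin, had 17.5 and 20.9, and Dsp, which codes for desmoplakin, the protein that anchors keratin at desmosomes, had 3 and 7 fragments.

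Markers of other keratin-bearing cells were below an FPKM of 1, and some were as abundant as Msln or Krt18 in the sham culture. All 17 general epithelial genes stayed below an FPKM of 1 in each library, beside 12838 of all 24091 genes. Their summed FPKM was 1.25 in the sham culture and 1.61 in the irradiated culture. Epcam had 4 fragments in each library and Cdh1, which codes for E-cadherin, 7 and 10, whereas Elf3, Esrp1, Ap1m2, and Prss8 had none in either. Esrp2, a splicing regulator of epithelium, was the 1 gene of this list with a counting interval above 0, on 18 and 49 fragments. Spint1, which codes for a membrane protease inhibitor and had the most fragments of the list, had an FPKM of 0.658 and 0.712 on 47 and 58 fragments, with an interval that included 0. All 10 genes of epididymal and oviductal epithelium were under an FPKM of 1, with a summed FPKM of 1.09 and 0.861, and Crisp1, Lcn5, Lcn8, Lcn9, Adam7, and Cst8 had no fragments in either library. Most of that sum was Rnase10, at an FPKM of 0.808 and 0.617 on 41 and 36 fragments, with an interval that included 0.

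Cells of the gonads can express Wt1 as well. Of 8 gonadal genes, 7 stayed below an FPKM of 1 in both libraries, beside 12838 of all 24091 genes. Amh had 2 fragments in each, Foxl2 had 3 and 12, and Cyp17a1 and Insl3 had none. The exception was Star, which codes for the carrier of cholesterol into mitochondria, at an FPKM of 2.35 and 6.63, a difference of 1.46 with a counting interval from 1.31 to 1.69. The list summed to an FPKM of 2.95 and 7.15, most of it Star.

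Genes of other cell types also differed between the libraries, and their part in the values above was not tested. Of 10 macrophage genes, 9 reached an FPKM of 1, with a median difference of 0.44. Of these 9, 7 were higher in the irradiated culture, beside 53.5% of all genes kept. The summed FPKM of the 10 was 605 and 644. The largest differences were those of C1qa and C1qc, at 0.80, while Lyz2, the most abundant, was at -0.11. Of 12 fibroblast and progenitor genes, 5 were higher and 7 lower, beside the same 53.5% of all genes kept that were higher. Their median was -0.06, and their summed FPKM was 4505 and 3608. Col1a1, the most abundant, and Pi16, a gene of progenitors, had differences of -0.44 and -0.55. The differences of Msln, Upk3b, Upk1b, Krt8, Krt18, and Krt19 were larger than those of any gene in the macrophage and fibroblast lists. Those of Lrrn4, at 0.80, and Krt7, at 0.75, were not. The members were chosen with their differences known, so this order is not a test.

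**Figure D4:**
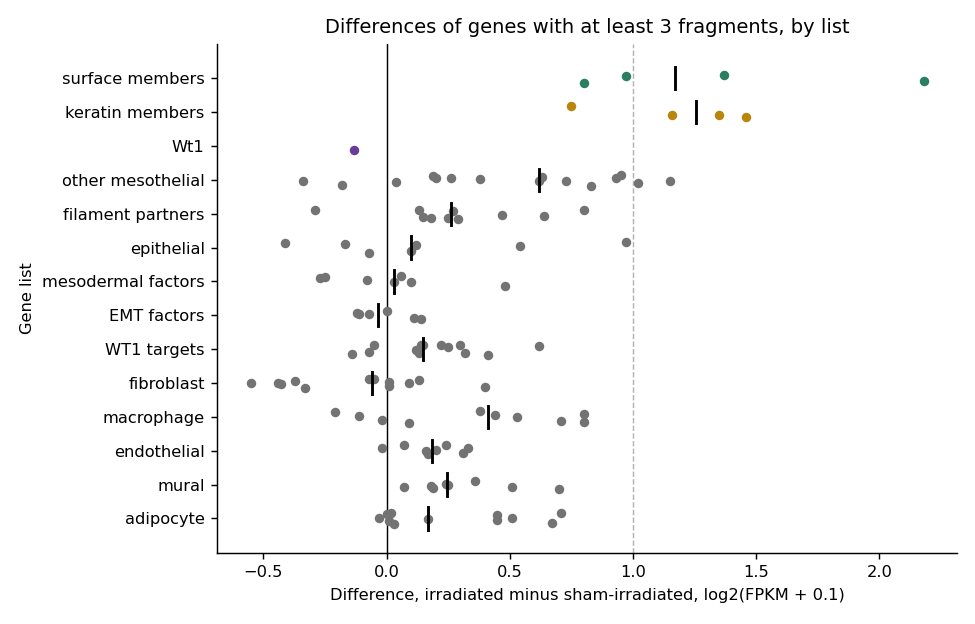
Difference on the log2(FPKM + 0.1) scale, irradiated minus sham-irradiated, of each gene with 3 or more fragments in either library, by gene list. Each dot is a gene, shifted vertically for legibility, and the black bar is the median of the list, drawn for lists of more than 1 gene. The medians of the surface genes (1.17) and the keratins (1.26) lie right of the other lists shown. Wt1 (-0.13) lies within the range of the mesodermal factors. It lies just below the lowest of the EMT (epithelial to mesenchymal transition) factors, Snai2 (-0.12).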

How the data were processed

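The authors deposited 1 table of log2 values, named as log2 FPKM, with the coordinates and length of each gene. The lowest value equals the log2 of 0.1, so 0.1 had been added to each FPKM. Per the labels, the genome build was mm10 and the library preparation was stranded. The sources used here do not give the aligner, the counting tool, or the filters. RefSeq GRCm38.p6 matched the chromosome and an end of 8 of the 9 measured genes.

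FPKM was recovered by undoing the logarithm and subtracting 0.1. The library total was the number for which low genes came closest to whole fragments, and all 2211 and 2089 low genes used lay within 0.12 of a whole number. The procedure was tested on simulated data. Fragments of abundant genes are approximate because values have 2 decimals. Differences are irradiated minus sham-irradiated on the deposited scale, which understates changes of low genes. Intervals are exact and cover counting error only, because there was 1 library per condition. PCR copies are not independent molecules, so the intervals can be too narrow even for counting error. The genes kept had an FPKM of 1 or more in either library. Alternatives changed the added constant, the filter, the scaling, and the threshold. The minimum of 3 fragments and the filter on mean FPKM were added after seeing the data.

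The members and gene lists were chosen with earlier results of these data known. All members were named. From each list up to 4 genes were named, those with the most fragments, the largest difference, or a count near 0. Any further gene in the text was picked with its values in view. SciPy 1.17.1, pandas 2.3.3, numpy 2.4.6, and matplotlib 3.10.9 were used under Python 3.11.15.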

Additional observations from a re-analysis of the deposited data

How the results depend on the processing

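No paired analysis was possible because there was only 1 culture of each kind, which also means that no replicate could be left out. The sign of all 9 member differences was the same with log2(FPKM + 1), with no added constant, after centring on the median difference, and after scaling without the 100 most abundant genes, which shifted all genes by -0.0143. The size depended on the added constant and the filter by their construction. With log2(FPKM + 1) the surface median was 0.816 and the keratin median 0.749, and 1 member was higher by at least 1 in place of 5. That member was Msln. The surface genes had a mean of 1.33. With an FPKM of 5 or more the surface median was 0.885 over Upk1b and Lrrn4, 0 members were higher by at least 1, and no keratin was left. With a threshold of 2, 1 member passed. Over all genes, 89 were higher and 42 lower by at least 1. These counts were 29 and 17 with log2(FPKM + 1), 267 and 148 without a filter, 23 and 10 with an FPKM of 5 or more, and 11 and 8 with a threshold of 2. With a mean FPKM of at least 1, an alternative chosen after seeing the data, 72 genes were higher and 26 lower, and 4 members were higher, in place of 5. Depth limits Krt7 most, with 10 and 23 fragments.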

Other observations

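All 8 endothelial genes reached an FPKM of 1, with a median difference of 0.185, the largest that of Emcn, at 0.33, and a summed FPKM of 47.9 and 52.9. All 8 genes of smooth muscle cells and pericytes were higher in the irradiated culture, with a median of 0.245, and 6 had a counting interval above 0, beside 53.5% and 23.8% of all genes kept. Acta2, which codes for smooth muscle actin, had an FPKM of 545 and 643, and Cspg4, which codes for the pericyte proteoglycan NG2, had the largest difference, 0.70, and reached an FPKM of 1 only through the irradiated culture. Tagln, which codes for transgelin of smooth muscle, had 342 and 488, a difference of 0.51 with an interval from 0.48 to 0.54.

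Lymphocyte genes were low. Of 8 listed, 6 stayed below an FPKM of 1 in both libraries, beside 12838 of all 24091 genes. Cd3g, a chain of the T cell receptor complex, had an FPKM of 1.12 and 0.617 on 35 and 22 fragments, with an interval from -1.70 to -0.05. Cd79a, a signalling chain of the B cell receptor, had 29 and 8 fragments, with a counting interval of the log2 ratio from -3.39 to -0.89, and Ptprc, a gene of all white blood cells, had an FPKM of 5.33 and 6.49. Of the membrane mucins and the mesothelin-like gene, none of the 6 with a row reached an FPKM of 1, and Muc1, with the most fragments, had 36 and 33.

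Outside the 4 members, the keratin with the most fragments was Krt80, with 76 and 134 and a counting interval from 0.21 to 1.05. Krt20, a keratin of gut and bladder lining, had 0 fragments in the sham culture and 8 in the irradiated culture, and Krt23 had 11 and 25, with an interval that included 0. These 3 genes were chosen after their values were seen.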
